A study of Homo sapiens with 6 samples.

Results

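The genes examined were MDM4, MDM2 and a panel of direct targets of the tumour suppressor p53, measured by RNA sequencing in CFPAC and KP3, which are established lines of human pancreatic cancer cells. Members were the rows of the deposited gene table named in a list of 32 genes. Of these, 31 were found among the 33097 genes of the table, and EDA2R was not analysed here. All 31 reached 1 FPKM (a read count scaled to transcript length and library depth) in at least 1 library and were among the 14582 genes tested; 29 of them are p53 targets and the others are the inhibitors MDM4 and MDM2. MDM2 is also a p53 target but was kept with the inhibitors. The question was whether the low MDM4 level seen with NEK7 siRNA went with higher levels of the targets.

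Each line was sequenced after transfection with an siRNA against NEK7, an siRNA against NEK6 or a control siRNA, and each of these 6 conditions is a single library. The control libraries are titled control siRNA but tagged WT in the treatment and genotype fields. Both kinases act in mitosis, and NEK7 in addition helps to activate NLRP3, an inflammasome sensor. The labels do not give the siRNA sequences. With no replicate of any condition, differences within a line have no replicate check. The p-values for an siRNA measure its mean effect against the part that differs between the lines, a spread partly pooled over genes. As in any bulk RNA measurement, fewer cells expressing a gene and less RNA per cell cannot be told apart.

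p53 is a transcription factor that is switched on by DNA damage and other stresses. MDM2, a ubiquitin ligase, marks p53 for degradation, and MDM4, its close relative, binds the activating domain of p53 and forms a dimer with MDM2. Activated p53 binds a pair of decamer motifs near its target genes and raises genes for cell cycle arrest, cell death, DNA repair and metabolic adaptation, together with MDM2 itself, which closes a feedback loop. Loss of MDM4 in cells with functional p53 is known to raise target genes such as CDKN1A.

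Promoter sequence is shown first, since p53 binding near the start site is what makes a gene a candidate direct target. RefSeq windows of GRCh38.p14, from 250 bases before to 50 bases after the start site, were available for 26 of the 31 members and were searched on both strands for a pair of p53 consensus decamers, with up to 2 mismatches in all, the central C and G of each decamer kept, no overlap between the decamers and a spacer of up to 13 bases. Such a pair was found in 5 of 26 members (19.2%), against 989 of 27305 genes in the promoter table (3.62%) and 331 of 9617 genes tested that had a window (3.44%). A gene was counted if any of its windows held a pair, and the number of windows per gene was not evened out. Since the members were listed for their place in the p53 pathway, their larger share may follow from that choice and tests nothing. The pairs are printed 5′ to 3′ on the strand of the gene, with the decamers in capitals and the bases around them in lower case, and each range below is that of the 30 bases printed.
DDB2: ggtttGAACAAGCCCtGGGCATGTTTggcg
MDM2: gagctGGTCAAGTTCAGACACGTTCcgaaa
FAS: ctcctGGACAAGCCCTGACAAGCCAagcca
AEN: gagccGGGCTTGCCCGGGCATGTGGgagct
FDXR: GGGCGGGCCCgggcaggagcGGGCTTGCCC
Within its printed stretch (chr11:47214974-47215003, plus strand) the DDB2 pair had 0 mismatches and a spacer of 1 base. The pairs in the printed stretches of MDM2 (chr12:68808918-68808947, plus strand), FAS (chr10:88991304-88991333, plus strand) and AEN (chr15:88621301-88621330, plus strand) had 2 mismatches and no spacer. The FDXR pair, which fills its stretch (chr17:74872996-74873025, minus strand), had 2 mismatches and a spacer of 10 bases. A match is a description of the letters and not a shown binding site, and many p53 elements lie outside such windows, the distal elements of CDKN1A among them.

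Library totals ran from 59478910 to 66067379 counts, and mitochondrially encoded genes took 11.4% to 17.9% of them. Each siRNA had its own target at a low level. NEK7 stood at 2.40 FPKM with NEK7 siRNA, against 17.97 FPKM with NEK6 siRNA and 14.8 FPKM with control siRNA in CFPAC, and at 5.79, 12.4 and 14.7 FPKM under the same siRNAs in KP3. NEK6 stood at 4.09 FPKM with NEK6 siRNA against 15.2 FPKM with control siRNA in CFPAC, and at 6.98 FPKM with NEK6 siRNA against 21.3 FPKM with control siRNA in KP3. The 5 epithelial markers examined were present in both lines, with summed levels of 519 to 1348 FPKM. Of the leukocyte markers, PTPRC and CD3E stayed at or under 0.127 FPKM in every library, while CD68, a lysosomal protein gene, ran from 47.5 to 76.9 FPKM. CD14, the other leukocyte marker, had 5.26 to 6.30 FPKM in CFPAC and 0.069 to 0.180 FPKM in KP3. The 5 fibroblast markers summed to 109 to 159 FPKM in CFPAC and 5.40 to 6.15 FPKM in KP3; LUM made up most of the CFPAC sum, DCN had 7.07 to 9.56 FPKM in CFPAC and 0.144 to 0.189 FPKM in KP3, and COL1A1 stayed between 1.97 and 3.19 FPKM in all libraries. The part of these markers in the differences between the lines was not tested.

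Levels of the members, in FPKM and thus per transcript length, spanned a wide range. PERP, a desmosomal tetraspan protein linked to cell death, had the highest median over the 6 libraries, 66.1 FPKM, followed by SFN at 62.4 FPKM and PLK2 at 43.4 FPKM. SESN1 and ZMAT3 had the lowest medians, 0.947 and 0.945 FPKM, with TIGAR at 0.949 FPKM next to them, and these 3 did not differ beyond their spread over libraries. The median of MDM4 was 2.22 FPKM and that of MDM2 4.57 FPKM. In 12 of 31 members (38.7%) every library had 5 FPKM or more, and 0 members were under 1 FPKM in all libraries.

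**Figure D1:**
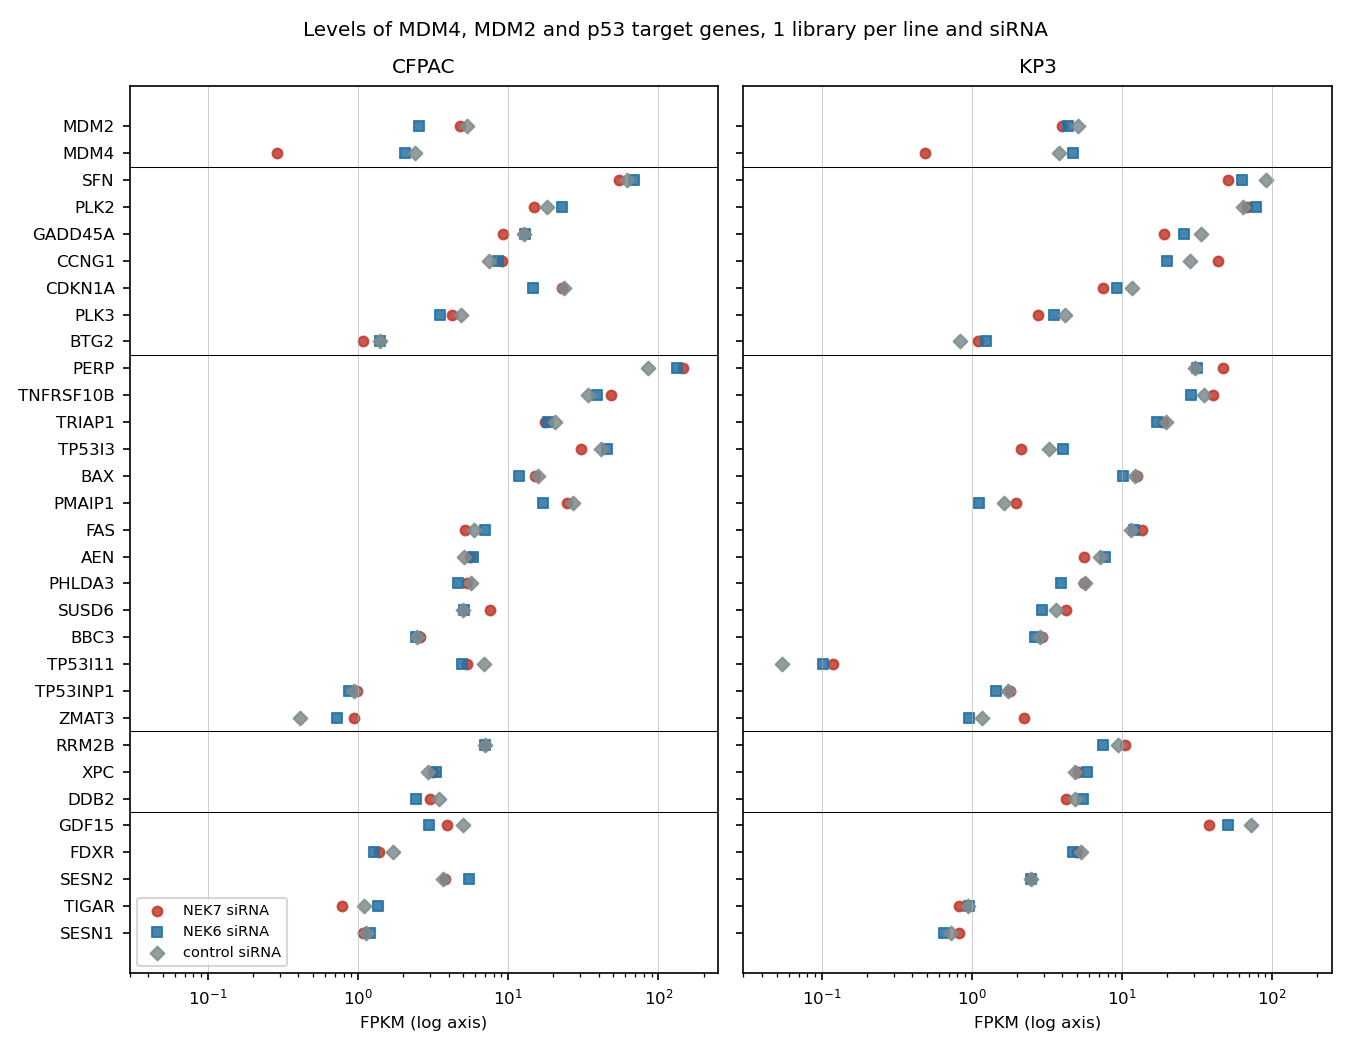
Each point is the FPKM of a gene in 1 library, on a log axis, for CFPAC (left) and KP3 (right); circles are NEK7 siRNA, squares NEK6 siRNA and diamonds control siRNA, and lines separate inhibitors, cell cycle, cell death and survival, DNA repair and metabolic or secreted groups. MDM4 with NEK7 siRNA, at 0.290 FPKM in CFPAC and 0.482 FPKM in KP3, stands apart from the other libraries of its line, while most targets lie close together across siRNAs.

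MDM4 (ENSG00000198625, chromosome 1, 204516379 to 204558120, plus strand; coordinates as deposited, which overlap the GRCh38 gene) was low with NEK7 siRNA in both lines. It had 0.290 FPKM (245 counts) with NEK7 siRNA, 2.06 FPKM (1717 counts) with NEK6 siRNA and 2.39 FPKM (1834 counts) with control siRNA in CFPAC. In KP3 it had 0.482 FPKM (423 counts) with NEK7 siRNA, 4.72 FPKM (3736 counts) with NEK6 siRNA and 3.82 FPKM (3224 counts) with control siRNA. Both NEK7 siRNA libraries thus lay below all 4 other libraries. Scaled to library totals, MDM4 with NEK7 siRNA was at 12.4% of control siRNA in CFPAC (95% interval 10.8 to 14.2) and 12.8% in KP3 (95% interval 11.5 to 14.1); these intervals, and those that follow for percentages, are exact and cover counting error only. On the log2(FPKM + 1) scale the differences were -1.39 and -1.70, and by the smaller of both lines' differences MDM4 was number 4 from the lowest of the 14582 genes tested. MDM4 was listed with this fall already known. Its rank, fold changes and calls, and its place in the member counts, thus describe the fall and are no independent support for it.

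The fit over both lines gave MDM4 a log2 fold change of -3.03 ± 0.20 (SE; 95% interval -3.54 to -2.51) for NEK7 siRNA against control siRNA, and an adjusted p of 0.173 by edgeR's quasi-likelihood test with Benjamini-Hochberg adjustment over all genes tested. No gene of the 14582 passed an adjusted p of 0.05 in this comparison (0.0%), so 0 members were called. An unadjusted p under 0.05 was found in 1372 of 14582 genes and 7 of 31 members, or 6 of 30 without MDM4 (edgeR). Those 6 were GADD45A, GDF15, SFN and TP53I3, lower, and PERP and ZMAT3, higher. DESeq2 on the same counts called MDM4 lower, with a log2 fold change of -3.03. It called 193 genes higher (1.32%) and 176 genes lower (1.21%) with NEK7 siRNA.

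MDM2 (ENSG00000135679, chromosome 12, 68808177 to 68850686, plus strand) was not higher with NEK7 siRNA in either line. It had 4.76 FPKM with NEK7 siRNA, 2.55 FPKM with NEK6 siRNA and 5.32 FPKM with control siRNA in CFPAC. The KP3 values were 3.95 FPKM with NEK7 siRNA, 4.39 FPKM with NEK6 siRNA and 5.08 FPKM with control siRNA. Control siRNA gave the highest MDM2 value in each line. The log2 fold change for NEK7 siRNA against control siRNA was -0.28 (95% interval -0.98 to 0.41, adjusted p = 0.749, edgeR), an interval that holds both lower and higher levels. It was -0.61 without the CFPAC NEK7 siRNA library and -0.012 without the KP3 one.

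**Figure D2:**
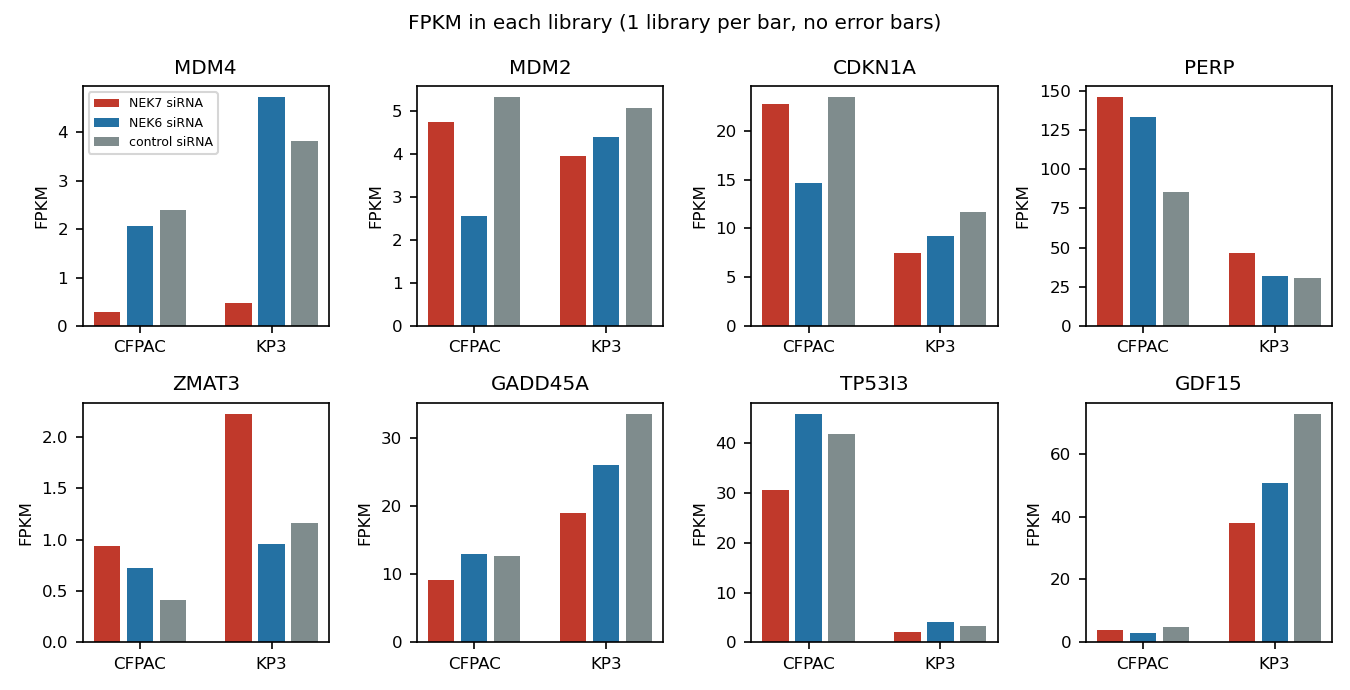
Bars show the FPKM of 8 genes in each library, grouped by line, with NEK7, NEK6 and control siRNA from left to right and 1 library per bar. MDM4 with NEK7 siRNA was at 0.290 FPKM in CFPAC and 0.482 FPKM in KP3, while CDKN1A and MDM2 with NEK7 siRNA stood no higher than with control siRNA in either line.

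The 29 targets did not move in 1 direction with NEK7 siRNA. Their median difference from control siRNA on the log2(FPKM + 1) scale was -0.09 in CFPAC and 0.03 in KP3, beside 0.03 and 0.01 over all genes tested. In both lines 8 targets (27.6%) had a higher value and 11 (37.9%) a lower value, against 33.9% and 25.6% of all genes tested. Past 1.5-fold in both lines, 1 member was higher, PERP, and 1 was lower, MDM4. Over all genes tested, 93 were past that fold higher (0.638%) and 110 lower (0.754%) in both lines.

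Among the 7 cell cycle targets, 1 had a higher and 4 had a lower value with NEK7 siRNA in both lines. CDKN1A (ENSG00000124762, chromosome 6, 36676460 to 36687337, plus strand) encodes the cyclin-dependent kinase inhibitor p21 and is the target most used as a readout of p53. It had 22.7 FPKM with NEK7 siRNA, 14.6 FPKM with NEK6 siRNA and 23.4 FPKM with control siRNA in CFPAC. In KP3 it had 7.48 FPKM with NEK7 siRNA, 9.26 FPKM with NEK6 siRNA and 11.7 FPKM with control siRNA. NEK7 siRNA thus left CDKN1A at 97.2% of control siRNA in CFPAC (95% interval 93.5 to 101) and 63.9% in KP3 (95% interval 60.1 to 67.9). The fitted log2 fold change was -0.35 (95% interval -0.97 to 0.27, adjusted p = 0.662, edgeR), and it was -0.75 without the CFPAC NEK7 siRNA library and -0.0078 without the KP3 one.

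GADD45A, a stress-induced gene whose product acts in growth arrest and repair, had lower values with NEK7 siRNA in both lines. It had 9.16 FPKM with NEK7 siRNA, 12.97 FPKM with NEK6 siRNA and 12.7 FPKM with control siRNA in CFPAC. The KP3 levels were 19.0 FPKM with NEK7 siRNA, 26.0 FPKM with NEK6 siRNA and 33.5 FPKM with control siRNA. The NEK7 siRNA library was the lowest of its line each time. The log2 fold change was -0.68 ± 0.15 (SE) against control siRNA, with an adjusted p of 0.492 by edgeR and of 0.020 by DESeq2.

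SFN, or stratifin, which holds cells in G2, had 54.9 FPKM with NEK7 siRNA and 61.7 FPKM with control siRNA in CFPAC, and 50.7 FPKM with NEK7 siRNA and 91.3 FPKM with control siRNA in KP3. PLK3, a polo-like kinase of the stress response, had 4.23 FPKM with NEK7 siRNA and 4.86 FPKM with control siRNA in CFPAC, and 2.74 FPKM with NEK7 siRNA and 4.15 FPKM with control siRNA in KP3. Both genes had lower NEK7 siRNA values in each line, with the wider gap in KP3. Adjusted p was 0.519 for SFN and 0.591 for PLK3 (edgeR). With NEK6 siRNA, PLK3 was also lower than with control siRNA, at 3.49 FPKM in CFPAC and 3.53 FPKM in KP3. SFN with NEK6 siRNA was above control siRNA in CFPAC, at 69.1 FPKM, and below it in KP3, at 63.0 FPKM. CCNG1, cyclin G1, which recruits a phosphatase to MDM2, was the cell cycle target with higher values in both lines. It had 9.05 FPKM with NEK7 siRNA and 7.46 FPKM with control siRNA in CFPAC, and 43.5 FPKM with NEK7 siRNA and 28.3 FPKM with control siRNA in KP3. Its log2 fold change was 0.44 (adjusted p = 0.629, edgeR), and it was 0.045 without the KP3 NEK7 siRNA library and 0.76 without the CFPAC one. PLK2 and BTG2, an antiproliferative factor, had differences of opposite sign in the lines.

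Of the 14 cell death and survival targets, 6 had higher and 3 lower values with NEK7 siRNA in both lines. PERP (ENSG00000112378, chromosome 6, 138088505 to 138107419, minus strand) was the only member past 1.5-fold higher in both. It had 145.9 FPKM with NEK7 siRNA, 133.3 FPKM with NEK6 siRNA and 85.6 FPKM with control siRNA in CFPAC. In KP3 cells there were 46.7 FPKM with NEK7 siRNA, 31.6 FPKM with NEK6 siRNA and 30.7 FPKM with control siRNA. The CFPAC values were high with either NEK siRNA, and the KP3 value was high with NEK7 siRNA. The log2 differences were 0.76 (CFPAC) and 0.59 (KP3), which put the KP3 value just past the 1.5-fold line at 0.585. The fitted log2 fold change was 0.65 ± 0.17 (SE), with an adjusted p of 0.492 by edgeR and of 0.0487 by DESeq2.

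ZMAT3, a zinc finger RNA-binding protein gene, had the next highest differences. It had 0.935 FPKM (796 counts) with NEK7 siRNA, 0.722 FPKM (617 counts) with NEK6 siRNA and 0.409 FPKM (323 counts) with control siRNA in CFPAC. The KP3 levels were 2.22 FPKM (1973 counts) with NEK7 siRNA, 0.956 FPKM (777 counts) with NEK6 siRNA and 1.16 FPKM (1006 counts) with control siRNA. The NEK7 siRNA value was the highest of each line, at 228% of control siRNA in CFPAC and 191% in KP3 scaled to library totals. The pseudocount of 1 compresses such a low gene, so its log2(FPKM + 1) differences were 0.46 and 0.58, just under the 1.5-fold line. The fitted log2 fold change was 1.01 ± 0.31 (SE; adjusted p = 0.507 by edgeR and 0.135 by DESeq2).

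TNFRSF10B, the death receptor DR5, had 48.1 FPKM with NEK7 siRNA and 34.0 FPKM with control siRNA in CFPAC, and 40.2 FPKM with NEK7 siRNA and 35.2 FPKM with control siRNA in KP3. SUSD6, a membrane protein gene, had 7.58 FPKM with NEK7 siRNA and 5.01 FPKM with control siRNA in CFPAC, and 4.22 FPKM with NEK7 siRNA and 3.65 FPKM with control siRNA in KP3. Both were higher in value in each line, by more in CFPAC, with adjusted p of 0.582 and 0.554 (edgeR). BBC3, which encodes the BH3-only protein PUMA, ran from 2.42 to 2.91 FPKM over all 6 libraries, a narrow range. BAX, which encodes the mitochondrial pore former, and PMAIP1, which encodes the BH3-only protein NOXA, had differences of opposite sign in the lines with NEK7 siRNA. So did FAS, another death receptor gene, AEN, an exonuclease gene of apoptosis, and TP53I11. Scaled to library totals, TP53I11 was at 76.9% of control siRNA in CFPAC and 223% in KP3. The KP3 value rests on 71 counts against 31, and the pseudocount flattens it. TP53INP1, a stress-induced gene, had log2 differences of 0.03 in both lines, while PHLDA3, a repressor of AKT, and TRIAP1, a survival gene, had differences between -0.19 and -0.03.

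TP53I3 (ENSG00000115129, chromosome 2, 24077433 to 24085861, minus strand), a quinone oxidoreductase gene also called PIG3, had lower values with NEK7 siRNA. It had 30.5 FPKM with NEK7 siRNA, 45.8 FPKM with NEK6 siRNA and 41.8 FPKM with control siRNA in CFPAC. In KP3 it had 2.13 FPKM with NEK7 siRNA, 4.07 FPKM with NEK6 siRNA and 3.27 FPKM with control siRNA. NEK7 siRNA gave the lowest value of each line. The log2 fold change against control siRNA was -0.56 ± 0.14 (SE), with an adjusted p of 0.492 by edgeR and of 0.0368 by DESeq2. DESeq2 thus called 4 of 31 members with NEK7 siRNA, beside 1.32% of all genes tested higher and 1.21% lower. Of the 4, MDM4, GADD45A and TP53I3 were lower and PERP was higher.

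Of the 5 metabolic, redox and secreted targets, 0 had higher and 3 had lower values with NEK7 siRNA in both lines. GDF15, a secreted stress cytokine of the TGF-beta family, had 3.92 FPKM with NEK7 siRNA, 2.97 FPKM with NEK6 siRNA and 4.96 FPKM with control siRNA in CFPAC. Its KP3 values were 38.0 FPKM with NEK7 siRNA, 50.6 FPKM with NEK6 siRNA and 72.6 FPKM with control siRNA. Control siRNA was the highest of each line, and the log2 fold change with NEK7 siRNA was -0.66 (95% interval -1.22 to -0.11, adjusted p = 0.510, edgeR). FDXR, a mitochondrial reductase gene, and TIGAR, a sugar phosphatase gene, had log2 differences between -0.24 and -0.08, and those of the sestrin genes SESN1 and SESN2 lay between -0.04 and 0.08. The pseudocount compresses low values here too. Scaled to library totals, TIGAR was at 71.3% of control siRNA in CFPAC and 86.7% in KP3, and FDXR at 81.4% and 93.4%. The 3 repair and nucleotide genes, DDB2 and XPC of nucleotide excision repair and RRM2B of nucleotide synthesis, had log2 differences between -0.15 and 0.15. Of the 5 genes with a decamer pair printed above, DDB2, MDM2 and FDXR had lower values with NEK7 siRNA in both lines, and FAS and AEN differed in sign between the lines.

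**Figure D3:**
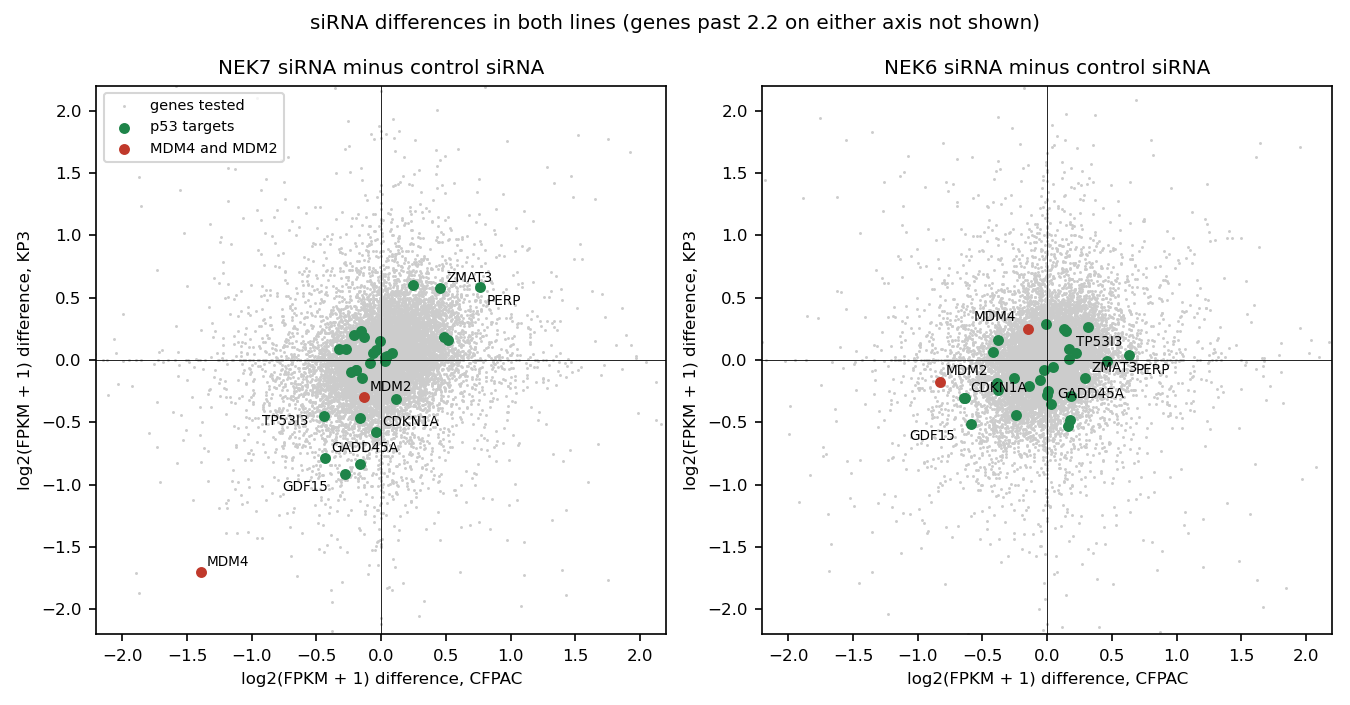
Each point is a gene, with its log2(FPKM + 1) difference from control siRNA in CFPAC on the x axis and in KP3 on the y axis, for NEK7 siRNA (left) and NEK6 siRNA (right); grey points are genes tested, green the 29 targets and red MDM4 and MDM2. With NEK7 siRNA MDM4 lies at -1.39 and -1.70, far from the targets, whose median was -0.09 in CFPAC and 0.03 in KP3.

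NEK6 siRNA left MDM4 near its control level. MDM4 was at 86.7% of control siRNA in CFPAC (95% interval 81.2 to 92.7) and 123% in KP3 (95% interval 117 to 129), so the lines differed in sign, and the fitted log2 fold change was 0.06 (adjusted p = 0.961, edgeR). The comparisons of NEK7 and of NEK6 siRNA with control siRNA share the control libraries. Of the 29 targets, 7 (24.1%) had higher and 11 (37.9%) lower values with NEK6 siRNA in both lines, against 27.6% and 27.7% of all genes tested, and their median difference was 0.01 in CFPAC and -0.14 in KP3. edgeR called 0 members and 0 genes (0.0%), with 1073 of 14582 genes and 3 of 31 members at an unadjusted p under 0.05. DESeq2 also called 0 members, beside 138 genes higher (0.946%) and 150 lower (1.03%). Past 1.5-fold in both lines were 0 members, beside 97 genes higher (0.665%) and 115 lower (0.789%).

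The members with an unadjusted p under 0.05 in that comparison were GDF15, PMAIP1 and BAX. PMAIP1 had 17.1 FPKM with NEK6 siRNA and 27.1 FPKM with control siRNA in CFPAC, and 1.12 FPKM with NEK6 siRNA and 1.62 FPKM with control siRNA in KP3. BAX had 11.8 FPKM with NEK6 siRNA and 15.7 FPKM with control siRNA in CFPAC, and 10.1 FPKM with NEK6 siRNA and 12.1 FPKM with control siRNA in KP3. Both were lower in value in each line, and adjusted p was 0.620 for PMAIP1, 0.673 for GDF15 and 0.676 for BAX (edgeR). CDKN1A and MDM2 also had lower values with NEK6 siRNA in both lines, at 62.7% and 48.3% of control siRNA in CFPAC and 79.0% and 86.1% in KP3 scaled to library totals. Their log2 fold changes were -0.49 and -0.60, with adjusted p of 0.709 and 0.70 (edgeR).

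In the direct comparison of NEK7 siRNA with NEK6 siRNA the values within a line use no control library, while the fit takes its spread from all 6 libraries. MDM4 with NEK7 siRNA was at 14.3% of its NEK6 siRNA level in CFPAC (95% interval 12.4 to 16.3) and 10.4% in KP3 (95% interval 9.36 to 11.5), and its log2 fold change was -3.08 ± 0.20 (SE; adjusted p = 0.184, edgeR). Past 1.5-fold in both lines, MDM4 was the 1 member lower and 0 members were higher, beside 131 genes lower (0.898%) and 143 higher (0.981%). The targets had median differences of 0.07 in each line, and 12 had higher and 8 lower values in both lines (41.4% and 27.6%, against 32.6% and 24.4% of all genes tested). edgeR called 0 genes (0.0%). An unadjusted p under 0.05 was found in 1437 of 14582 genes and 6 of 31 members, or 5 of 30 without MDM4 (edgeR). DESeq2 called MDM4 and TP53I3 lower, beside 253 genes higher (1.74%) and 222 lower (1.52%).

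TP53I3 had a log2 fold change of -0.79 ± 0.14 (SE) for NEK7 siRNA against NEK6 siRNA, with an adjusted p of 0.295 by edgeR. PMAIP1 and SUSD6 had higher values in both lines, with log2 fold changes of 0.63 and 0.53, and GADD45A and PLK2 lower values, with -0.51 and -0.43; their adjusted p ran from 0.409 to 0.464 (edgeR). CDKN1A and MDM2 had higher values with NEK7 siRNA in CFPAC and lower values in KP3, with fitted log2 fold changes of 0.14 and 0.32.

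Another 3 lists of genes of the p53 pathway were examined for NEK7 siRNA against control siRNA. Over all genes tested, 33.9% had higher and 25.6% lower values in both lines, and 1372 of 14582 had an unadjusted p under 0.05. Of 48 further p53 targets tested, 16 (33.3%) had higher and 12 (25.0%) lower values in both lines, with median differences of 0.07 in CFPAC and -0.00 in KP3; 0 were called and 7 had an unadjusted p under 0.05 (edgeR). TRIM32, a ubiquitin ligase gene, had 5.33 FPKM with NEK7 siRNA, 4.27 FPKM with NEK6 siRNA and 0.740 FPKM with control siRNA in CFPAC, and 1.54, 1.57 and 0.893 FPKM under the same siRNAs in KP3. The TRIM32 values were thus high with either NEK siRNA. DRAM1, a lysosomal autophagy gene, had 9.15 FPKM with NEK7 siRNA and 5.06 FPKM with control siRNA in CFPAC, and 4.38 FPKM with NEK7 siRNA and 3.29 FPKM with control siRNA in KP3. ASCC3, a helicase gene, was higher in value in both lines, by 0.32 in each, and SLC12A4, an ion cotransporter gene, lower by value, at -0.39 and -0.37 (log2(FPKM + 1) differences). With NEK6 siRNA ASCC3 was also higher in value, by 0.49 in CFPAC and 0.28 in KP3. SLC12A4 then had -0.04 and 0.08, and DRAM1 had 0.18 and -0.36.

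Of 20 regulators of p53 tested, 11 (55.0%) had higher and 4 (20%) lower values with NEK7 siRNA in both lines, with median differences of 0.07 in CFPAC and 0.13 in KP3; 0 were called and 3 had an unadjusted p under 0.05 (edgeR). ATM, the damage kinase, TP53BP1, a p53-binding repair factor, and RPL11, a ribosomal protein that binds MDM2, had log2 differences between 0.25 and 0.45 in both lines, and PPP1R13L, an inhibitor of p53, had -0.36 in CFPAC and -0.24 in KP3. With NEK6 siRNA, ATM (0.29 and 0.21), RPL11 (0.51 and 0.17) and TP53BP1 (0.01 and 0.19) also had higher values in both lines. PPP1R13L then had -0.13 in CFPAC and 0.17 in KP3.

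Of the 12 cell cycle genes repressed through the p53, p21 and DREAM pathway, 3 (25.0%) had higher and 8 (66.7%) lower values with NEK7 siRNA in both lines, with median differences of -0.04 in CFPAC and -0.06 in KP3; 0 were called and 1 had an unadjusted p under 0.05 (edgeR). AURKB, a mitotic kinase, had log2 differences of -0.34 and -0.44, and CDK1 had -0.25 and -0.27. The kinase BUB1 had 0.30 and 0.23, and the cyclin CCNB2 had 0.15 and 0.16. NEK6 siRNA gave -0.33 and -0.45 for AURKB and -0.08 and -0.28 for CDK1, also lower in both lines. It gave -0.003 and -0.08 for BUB1 and -0.001 and 0.28 for CCNB2. With NEK6 siRNA, 0 of these 12 genes had higher and 7 (58.3%) had lower values in both lines, against 27.6% and 27.7% of all genes tested, and the medians were -0.22 (CFPAC) and -0.23 (KP3).

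The lines themselves differed far more than the siRNAs. edgeR called 19 of the 31 members between CFPAC and KP3, taken over the 3 siRNA conditions of each line, of which 8 were higher and 11 lower in CFPAC. These p-values measure the line difference against its spread over siRNA conditions, with no replicate culture of any condition. The line comparison has more libraries on each side than an siRNA comparison, so their numbers of calls are not on an equal footing. Over all genes tested, 4277 were called higher (29.3%) and 3946 lower (27.1%) in CFPAC. The median size of the log2 fold change was 0.74 in the members and 0.74 in all genes tested, and the 3 libraries of each line did not overlap in 20 of 31 members (64.5%), against 64.2% of all genes tested, so the members' share is that of genes at large.

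Of the 14 cell death and survival targets, 6 were called higher and 3 lower in CFPAC, and of the 7 cell cycle targets 1 was called higher and 3 lower. TP53I11 averaged 5.70 ± 1.06 FPKM in CFPAC and 0.092 ± 0.034 FPKM in KP3 (SD, n = 3 libraries each, here and below), with 31 to 71 counts in the KP3 libraries and a log2 fold change of 5.99. PMAIP1 averaged 23.0 ± 5.2 FPKM in CFPAC and 1.57 ± 0.43 FPKM in KP3 (log2 fold change 3.92). TP53I3 averaged 39.4 ± 7.9 FPKM in CFPAC and 3.16 ± 0.98 FPKM in KP3 (log2 fold change 3.71). In these 3 genes the siRNA libraries of a line lay far closer to each other than to the other line. PERP averaged 121.6 ± 31.8 FPKM in CFPAC and 36.3 ± 9.0 FPKM in KP3, and CDKN1A averaged 20.3 ± 4.9 FPKM in CFPAC and 9.47 ± 2.11 FPKM in KP3. SESN2, SUSD6 and BAX were higher in CFPAC by log2 fold changes of 0.82, 0.74 and 0.33. The adjusted p of the 8 genes ran from 0.000121 to 0.0473 (edgeR), with BAX, whose libraries overlapped between the lines, closest to the threshold. The BAX call was lost with any single library left out, at log2 fold changes of 0.28 to 0.36, and the SESN2 call without the CFPAC NEK6 siRNA library, at 0.63.

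GDF15 was the member lowest in CFPAC relative to KP3, with 3.95 ± 0.995 FPKM in CFPAC and 53.8 ± 17.5 FPKM in KP3 (log2 fold change -3.70, adjusted p = 0.000268, edgeR). PLK2 averaged 18.6 ± 4.0 FPKM in CFPAC and 69.9 ± 6.8 FPKM in KP3. CCNG1 averaged 8.35 ± 0.81 FPKM in CFPAC and 30.6 ± 11.9 FPKM in KP3. FDXR averaged 1.46 ± 0.23 FPKM in CFPAC and 4.99 ± 0.30 FPKM in KP3. Their log2 fold changes were -1.88, -1.76 and -1.73, and no library of a line reached those of the other. GADD45A, ZMAT3, FAS, MDM4, TP53INP1, XPC and DDB2 were also lower in CFPAC, by log2 fold changes between -1.11 and -0.67, with adjusted p of 0.00186 to 0.0326 (edgeR). Of these, the DDB2 call was lost with any single library left out, at log2 fold changes of -0.79 to -0.43, the TP53INP1 call without any library but the CFPAC NEK6 siRNA one, at -0.83 to -0.76, and the ZMAT3 call without the NEK7 or the control siRNA library of either line, at -0.90 to -0.79. For MDM4, whose values in the lines overlapped because of the NEK7 siRNA libraries, the log2 fold change was -0.82. MDM2 did not pass the test, with 4.21 ± 1.46 FPKM in CFPAC and 4.47 ± 0.57 FPKM in KP3.

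**Figure D4:**
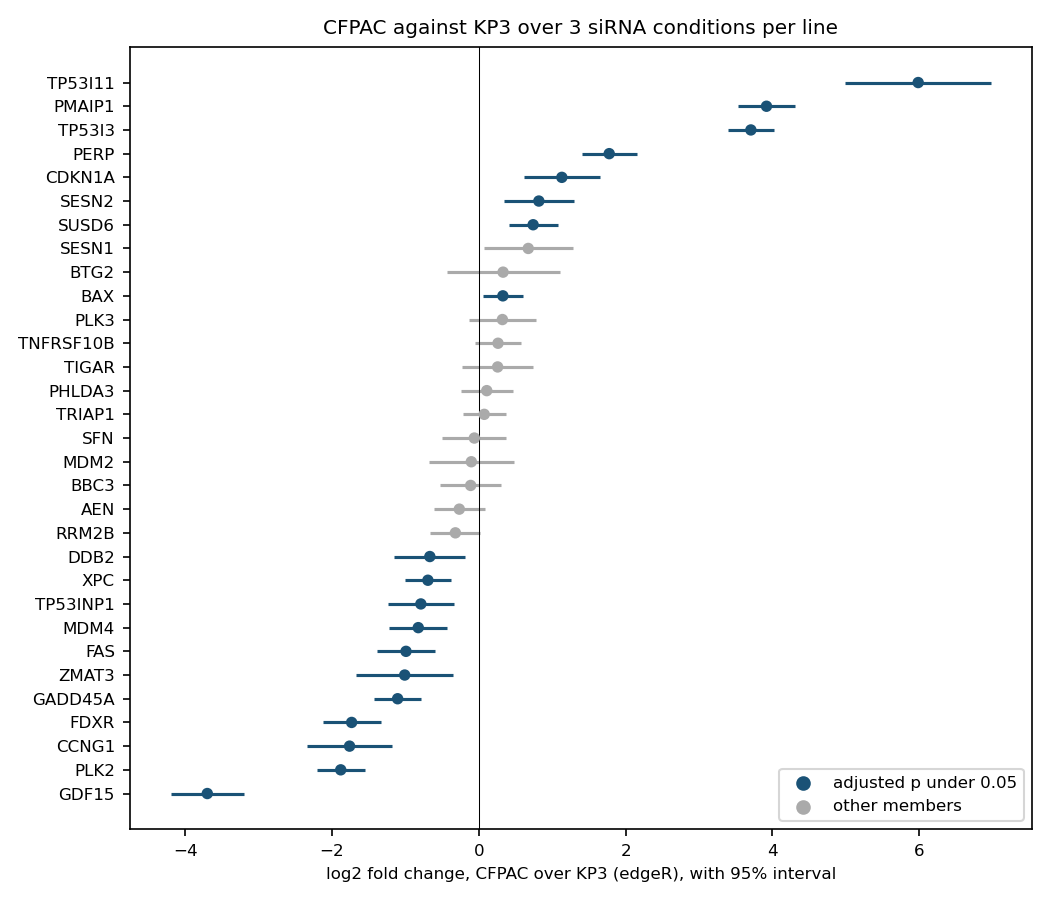
Points are edgeR log2 fold changes of CFPAC over KP3 for the 31 members, fitted over 3 siRNA conditions in each line, and bars are 95% intervals; dark points passed an adjusted p of 0.05. TP53I11, PMAIP1 and TP53I3 lie highest and GDF15 lowest, at -3.70.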

How the data were processed

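Per the labels' protocols, oligo(dT) beads and 5 ug of total RNA went into each of the 6 libraries. Per the submitters' processing notes, the tools were edgeR, StringTie 1.3.4d, HISAT2 2.0.4 and cutadapt 1.9, whose roles are not stated. The authors deposited a whole-number count for each gene and library, without normalization. The same table holds FPKM values from the authors, which per the file headers correct for transcript length and depth. No source used here gives the genome build; all 31 members overlap their GENCODE v29 (GRCh38) gene on the same strand.

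Genes with at least 1 FPKM in at least 1 library were tested. edgeR 4.0.16 (R 4.3.3) fitted the counts with TMM normalization and with line and siRNA as additive factors, which left 2 residual degrees of freedom. Its quasi-likelihood test pools part of the spread over genes, so tests and intervals of fold changes used 4.98 degrees of freedom. The common dispersion was 0.0685. The Benjamini-Hochberg adjustment ran over every gene tested, and an adjusted p under 0.05 was a call. Differences within a line are of log2(FPKM + 1). Percentages of a reference library have exact 95% intervals from counts. DESeq2 1.42.0, limma 3.58.1, other size factors, filters, pseudocounts and folds, no line or siRNA block and each library left out were alternatives. Python 3.11.15 with pandas 2.3.3 and scipy 1.17.1 made the tables. The fits were also run on simulated data, with a dispersion set below that of these libraries. That run therefore does not give the power or the rate of false calls here.

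The members and lists were chosen with earlier results of these data known, the low MDM4 level with NEK7 siRNA among them. The promoter search was added after the members' values were seen. All members are named; full values are given for MDM4, MDM2, CDKN1A, members past 1.5-fold in both lines and the members described by fits, and up to 4 genes of each further list were named by the smaller of both lines' differences. EDA2R was not analysed here, and the planned values of 1 gene of the regulator list are not reported here. Other tested genes of those lists that are not named entered only the counts and medians.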

Additional observations from a re-analysis of the deposited data

Results flagged for a closer look

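In 19 of 93 pairs of member and siRNA comparison, the 95% counting intervals lay on opposite sides of the reference library in the 2 lines. The share over all genes tested was not computed, so this count cannot be read as particular to the members. The difference between the lines was not tested, since each condition has 1 library, and the intervals cover counting error only. All values below are the percentage of the reference library's FPKM, with CFPAC before KP3.

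For NEK7 siRNA against control siRNA, AEN was at 110% in CFPAC and 77.8% in KP3. The other 5 genes were below control in CFPAC and above it in KP3. They were BTG2 at 76.4% and 132%, FAS at 87.9% and 119%, PLK2 at 81.9% and 106%, PMAIP1 at 90.7% and 122%, and TP53I11 at 76.7% and 221%, the last with 71 counts with NEK7 siRNA against 31 with control siRNA in KP3.

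For NEK6 siRNA against control siRNA, 4 genes were above control in CFPAC and below it in KP3. They were CCNG1 at 114% and 70.6%, SFN at 112% and 69.0%, TNFRSF10B at 114% and 81.3%, and ZMAT3 at 177% and 82.3%. DDB2 at 70.2% and 114%, MDM4 at 86.2% and 124%, and TP53I11 at 71.2% and 190% went the other way.

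For NEK7 siRNA against NEK6 siRNA, CDKN1A was at 155% in CFPAC and 80.7% in KP3, MDM2 at 186% and 90.0%, and GDF15 at 132% and 75.0%. DDB2 at 124% and 77.4% and PLK3 at 121% and 77.6% had the same signs. FAS was at 73.4% in CFPAC and 114% in KP3. The gap was widest for MDM2 among these 6 genes.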

How the results depend on the processing

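With 1 library for each condition, the siRNA tests have 2 residual degrees of freedom, or 4.98 with the spread pooled over genes. Even a large change shared by the lines may thus not pass. The members called with NEK7 siRNA against control siRNA were 4 with DESeq2 in place of 0, and against NEK6 siRNA 2 in place of 0. The MDM4 log2 fold change with NEK7 siRNA against control siRNA ran from -3.17 to -2.87 as each library was left out. Members called between the lines were 10 instead of 19 with a mean FPKM of at least 5, since 16 members were then tested, and 15 to 16 as each library was left out; the BAX, DDB2, ZMAT3, TP53INP1 and SESN2 calls were those lost, and the MDM4 call was lost without the siRNA factor in the model.

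Past the fold in both lines with NEK7 siRNA, 1 member was higher, and 2 were at a pseudocount of 0.1 or at a lower fold threshold of 5/4 (PERP and ZMAT3), and 0 after median-ratio rescaling or at 2-fold. Lower were 1, and 0 at a mean FPKM of at least 5, where MDM4 is left out, and 3 at the lower threshold (MDM4, GADD45A and TP53I3). With NEK6 siRNA, 1 was lower at the lower threshold (GDF15) in place of 0. The median difference of the targets in KP3 with NEK6 siRNA was -0.29 at a mean FPKM of at least 5, in place of -0.14.

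Other uncalled siRNA fold changes moved by over 1.5 times, with the same sign, as single libraries were left out. With NEK7 against control siRNA the ranges were -1.01 to -0.34 for GDF15, -0.88 to -0.20 for SFN, -0.68 to -0.19 for PLK3, 0.12 to 0.51 for TNFRSF10B and 0.20 to 0.54 for SUSD6. With NEK6 against control siRNA they were -1.10 to -0.16 for MDM2, -0.83 to -0.19 for CDKN1A and -0.89 to -0.38 for GDF15, and with NEK7 against NEK6 siRNA -0.65 to -0.22 for PLK2. Fitted values near 0 changed sign as single libraries were left out. The ranges were -0.20 to 0.30 for MDM4 with NEK6 against control siRNA, -0.14 to 0.81 for MDM2 and -0.25 to 0.50 for CDKN1A with NEK7 against NEK6 siRNA, and -0.31 to 0.22 for MDM2 in CFPAC against KP3. In all, 514 of the recomputed values kept their direction and their side of the threshold, 29 lost a call, 6 gained 1 and 7 changed sign. For the siRNA comparisons the main test called 0 genes, so keeping the same side of the threshold there says little. The labels give no shared replicate numbers, and pairing was by line: line was the block of the siRNA comparisons and siRNA that of the line comparison. Without this block 0 members were called in each siRNA comparison and 17 between the lines.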
